A study of Mus musculus with 24 samples.

Results

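The nuclear-encoded subunits of the respiratory chain were followed in mammary tissue of PyMT and FVB mice. They were taken as the protein-coding genes of the count table whose GENCODE M1 symbol begins with Nduf and a subunit letter and number, is Sdha, Sdhb, Sdhc or Sdhd, or begins with Uqcr, with Cox4 to Cox8 or with Atp5. Cox7a1 and Cox8b were left out. The rule gave 85 of the 37991 genes, of which 38 fell to complex I, 4 to complex II, 8 to complex III, 17 to complex IV and 18 to complex V. PyMT mice were F1 females of FVB/N-Tg(MMTV-PyVT)634Mul/J males and FVB females. They were heterozygous for the polyoma middle T transgene, which the long terminal repeat of the mouse mammary tumor virus drives in mammary epithelium. Controls were homozygous FVB females, so both genotypes share the FVB background. Glands or tumors of 3 mice per genotype were sequenced at week 6 (hyperplasia), week 8 (adenoma or mammary intraepithelial neoplasia), week 10 (early carcinoma) and week 12 (late carcinoma), which makes 24 samples in 8 groups. By the study's methods, a pathologist examined the PyMT tumors. The report found the carcinomas to be mainly tumor cells, with few stromal and muscle cells and rare inflammatory cells. The methods give no such estimate for the FVB glands.

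The respiratory chain sits in the inner mitochondrial membrane. Complex I oxidizes NADH and complex II oxidizes succinate, and both pass electrons through ubiquinone to complex III, which reduces cytochrome c, and to complex IV, which reduces oxygen. Protons moved by complexes I, III and IV drive ATP synthesis by complex V. Most subunits are encoded in the nucleus and imported, while a few core subunits of complexes I, III, IV and V are encoded by mitochondrial DNA. Skeletal muscle and brown fat are rich in mitochondria, and brown fat uses the uncoupling protein Ucp1 to turn the proton gradient into heat.

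The tests took in genes that reached a CPM (a count scaled to a fixed total of counted reads per sample) of 1 or more in 12 or more samples. This held for 14918 genes and for 78 of the 85 members. Those tested were 37 members of complex I, 4 of II, 8 of III, 12 of IV and 17 of V. The 7 others were Cox4i2, Cox6a2, Cox6b2, Cox7b2, Cox8c, Atp5l-ps1 and a second identifier of Ndufb8, and Cox7b2, Cox8c and that identifier had no count in any sample. By its letters the rule also takes in genes that are not subunits of the complex they are listed under. Among them are Cox4nb (a neighbor of Cox4i1), Cox7a2l (a supercomplex assembly factor), Atp5s and Atp5sl, and Ndufa4, which is listed here under complex I, is known as a subunit of complex IV. The exons of 17 tested members overlap those of a gene on the other strand, so that their counts are less certain where counting did not use strand. Those of 3 overlap a gene on the same strand, and the counts of these 3 are less certain with or without use of strand. Many subunit genes also have processed pseudogene copies, and how reads shared with copies were counted was not tested.

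Promoters were examined for short binding motifs because nuclear respiratory factors are known regulators of these genes. RefSeq promoters on GRCm38.p6, which run from 250 bases before to 50 after a gene's start, were found for 68 of the 85 members. The core of the NRF1 motif, GCGCANGCG on either strand, was in the promoter of 20 of the 68 (29.4%) and of 14.6% of 10735 tested genes with a promoter. It was in 8 of the 32 matched members that were lower in PyMT over all weeks (25%) and in 12 of the 33 other tested members (36.4%). YY1's AAGATGGCG was in 8 of 68 (11.8%) against 3.35%, GABPA's CCGGAAGT in 5 of 68 (7.35%) against 8.65%, and the CAAGGTCA of estrogen-related receptors in 4 of 68 (5.88%) against 1.32%. Each gene was counted once per motif, and a palindromic NRF1 core matches on both strands at 1-base offset. Such a match describes letters and not binding. The 100 bases before the start are given for the member with the smallest p over all weeks among those of its complex with an NRF1 match in this window. Complexes III and IV had no such member. Sequences run 5′ to 3′ on the gene's strand from RefSeq, and capitals mark NRF1 matches.
Ndufa11, complex I, chr17:56717662-56717761, plus strand: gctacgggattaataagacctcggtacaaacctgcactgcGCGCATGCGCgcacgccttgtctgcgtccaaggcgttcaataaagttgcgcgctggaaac
Sdha, complex II, chr13:74350241-74350340, minus strand: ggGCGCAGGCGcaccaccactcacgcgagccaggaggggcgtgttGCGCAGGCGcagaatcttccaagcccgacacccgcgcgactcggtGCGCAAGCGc
Atp5g2, complex V, chr15:102671048-102671147, minus strand: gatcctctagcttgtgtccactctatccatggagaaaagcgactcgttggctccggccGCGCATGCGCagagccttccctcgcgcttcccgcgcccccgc

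Total counts ran from 6969375 to 13516601 per sample. Levels are given as normalized counts (counts over DESeq2's size factors). The members' median level, on the log2(normalized count + 1) scale, was 8.52 to 9.08 in the 12 PyMT samples. In 8 FVB samples it was 8.64 to 9.09, and in 4 FVB samples it was 9.78 to 9.93. These 4 libraries stood apart, 1 at each week: replicate 1 of week 6, replicate 1 of week 8, replicate 3 of week 10 and replicate 1 of week 12. The members took 1.09% to 1.36% of all counts in them, 0.583% to 0.829% in the other FVB libraries and 0.636% to 0.955% in the PyMT libraries.

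The same 4 libraries had the highest levels of Ucp1, with 4402, 7650, 5837 and 4519 normalized counts. The other FVB libraries had 5.47 to 1607, and PyMT libraries had 2.81 to 3765, with the highest in replicate 2 of week 6. The summed level of 12 skeletal muscle markers was 53573 CPM in the FVB library of week 6 replicate 1, 52713 in that of week 10 replicate 3, 34065 in that of week 12 replicate 1 and 16773 in that of week 6 replicate 2. It was 75.3 CPM in the FVB library of week 8 replicate 1, so this library had the highest Ucp1 level and little muscle. The PyMT libraries had at most 4722 CPM of muscle markers. Of 5 brown fat markers, Zic1 had a median of 0 in both genotypes, and the summed level of the list was 139 to 12652 normalized counts in FVB and 2.81 to 5716 in PyMT. The 4 libraries with at least 10000 CPM of muscle markers are called muscle-rich, and those with at least 3000 normalized counts of Ucp1 are called Ucp1-rich. Both limits were chosen after the values had been seen, and together they mark 6 libraries, 5 of FVB and 1 of PyMT. In bulk tissue, fewer cells of a type and less RNA per cell cannot be told apart. Results are therefore given over 24 libraries and over the 18 libraries (11 PyMT, 7 FVB) left without these 6. The 6 include the 4 FVB libraries with the highest member levels, so leaving them out tends to raise the members' fold changes. Calls lost and signs changed over 18 libraries are described here, and their cause was not tested.

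**Figure D1:**
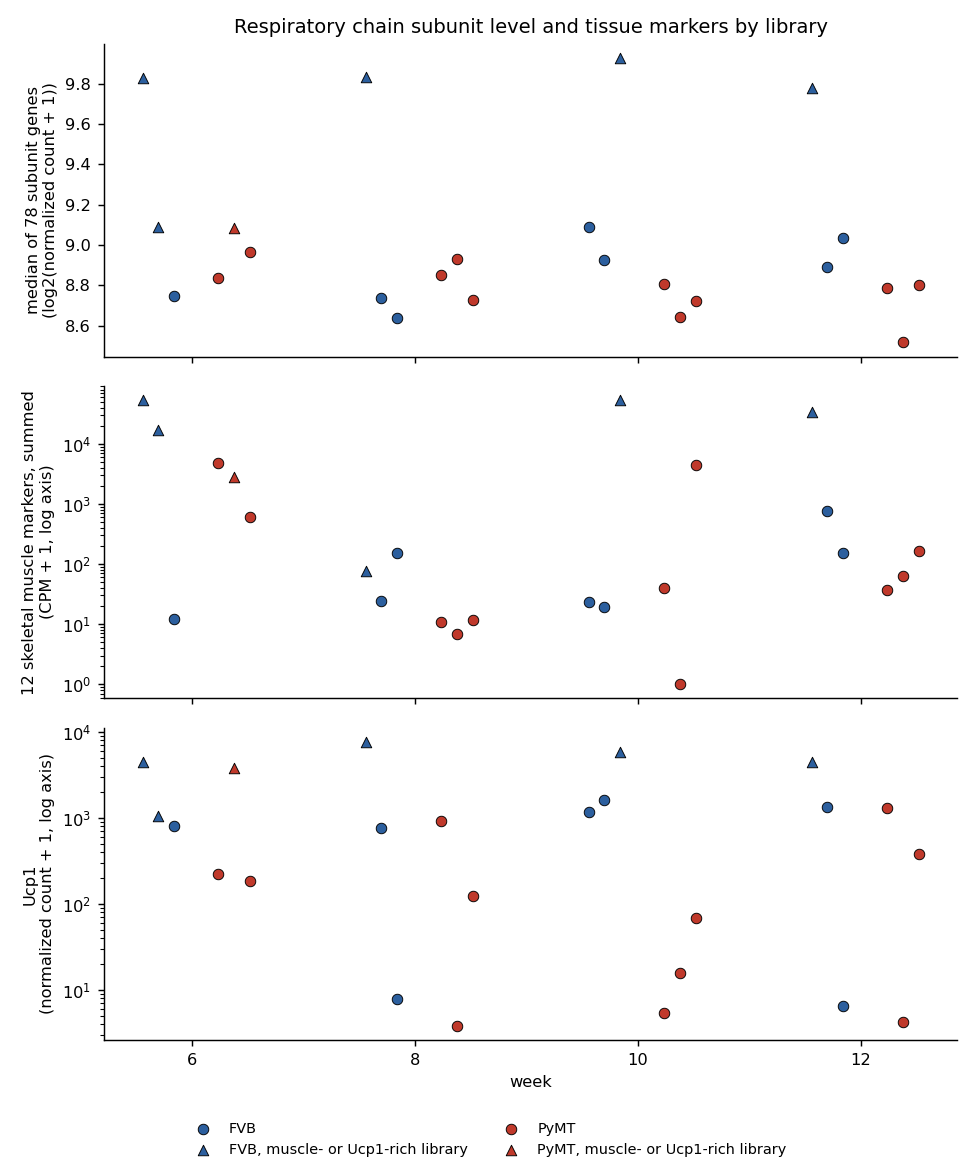
Median level of the 78 tested subunit genes (top, log2(normalized count + 1)), summed CPM of 12 skeletal muscle markers (middle, log axis) and normalized count of Ucp1 (bottom, log axis) in each of the 24 libraries by week. Blue is FVB, red is PyMT, each point is 1 mouse and triangles are the 6 muscle- or Ucp1-rich libraries; the 4 FVB libraries at 9.78 to 9.93 in the top panel are those with 4402 or more normalized counts of Ucp1.

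Markers of other cell types also moved with genotype, beside 27.5% of all tested genes lower and 23.6% higher over 24 libraries. All 8 adipocyte markers were lower in PyMT over all weeks, and their sum was 43042 to 119545 normalized counts in FVB and 862 to 14233 in PyMT. All 5 endothelial and all 6 fibroblast markers and 4 of 7 basal and myoepithelial markers were lower, 7 of 8 luminal epithelial markers were higher and Krt19 was lower. Of 5 macrophage markers Csf1r was lower and the others did not pass, and no lymphocyte marker was tested. With library size only Krt19 and Csf1r were not called lower, and the macrophage marker Lyz2 was called higher. Over the 18 libraries these counts were the same, while 12 of 12 muscle and 4 of 4 tested brown fat markers were lower over 24 libraries and 0 of each over 18. The part of cell composition in the members' differences was not tested beyond leaving out libraries and the covariates given in the closing section.

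Over all weeks (edgeR's quasi-likelihood test of 12 PyMT against 12 FVB samples with week as a term, Benjamini-Hochberg adjusted p under 0.05), 42 of the 78 members (53.8%) were lower in PyMT and 0 were higher. Of all tested genes 27.5% were lower and 23.6% were higher. The median log2 fold change (PyMT over FVB) was -0.54 for the members and -0.03 for all genes, and 72 of 78 members had a value below 0. For 8 members the decrease was over 2-fold (17.2% of all genes). At an unadjusted p under 0.05, 45 members were lower and 0 higher (4474 and 3927 of the 14918 genes). DESeq2's Wald test gave 43 lower and 0 higher (30.1% and 24.6% of all genes). Voom with sample quality weights gave 23 lower and 3 higher (29.1% and 28% of all genes). By voom the members' share called lower was thus near that of all genes. With counts scaled by library size only, which raised the median of all genes to 0.26, 24 members were lower and 7 higher (19.2% and 36.4% of all genes).

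Without the 4 muscle-rich libraries, over all weeks, 19 members were lower and 2 higher (23.3% and 23.1% of all genes), with a median of -0.18. Without the 6 muscle- or Ucp1-rich libraries, 19 members (24.4%) were lower and 8 (10.3%) were higher, against 24.2% and 24% of all genes, and the median was 0.01. Among the 6 are the 4 FVB libraries with the highest member levels. Leaving them out raises the median, and no conclusion is drawn from the rise. The share of lower members was then near that of all genes, and 18 of the 19 were among the 42 of the fit of 24 libraries. Complex by complex, the medians over 24 and over 18 libraries were -0.57 and -0.01 for complex I, -0.93 and -0.37 for II, -0.59 and 0.03 for III, -0.57 and -0.06 for IV and -0.20 and 0.20 for V. Lower members numbered 21 of 37 and 11 of 37 for complex I, 4 of 4 and 3 of 4 for II, 5 of 8 and 1 of 8 for III, 8 of 12 and 4 of 12 for IV, and 4 of 17 and 0 of 17 for V. Of the 8 members higher over 18 libraries, 6 belonged to complex V.

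**Figure D2:**
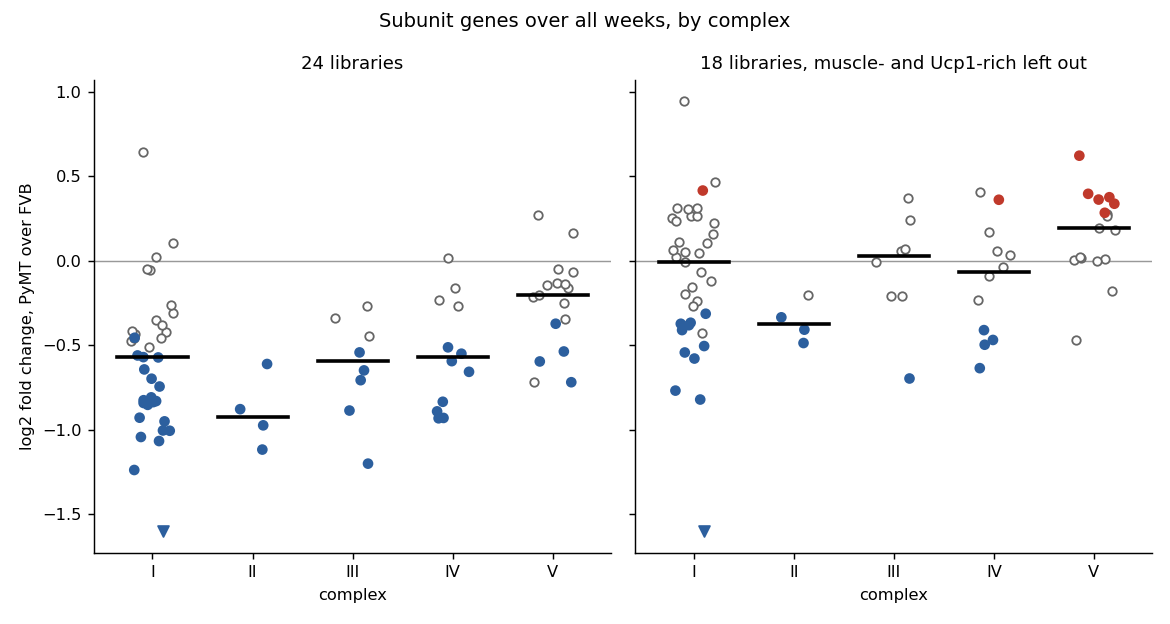
Log2 fold change (PyMT over FVB) of each tested subunit gene over all weeks, by complex, in the fit of 24 libraries (left) and of the 18 libraries left without the muscle- and Ucp1-rich ones (right). Filled points passed an adjusted p of 0.05 (blue lower, red higher), open points did not, bars are medians and the triangle is Ndufa4l2 at -3.02 (left) and -3.24 (right), off the axis; the medians run from -0.93 to -0.20 on the left and from -0.37 to 0.20 on the right.

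Over all weeks, a group of 11 members was lower in PyMT in the fit of 24 libraries and under all 5 alternatives that leave out or adjust for muscle or brown fat. That is 14.1% of the members, while 20.5% of all tested genes met the same condition. They were Ndufa1, Ndufa7, Ndufb3, Ndufb10, Ndufv3 and Ndufa4l2 of complex I, Sdhb of II, Uqcrq of III, and Cox6a1, Cox8a and Cox4nb, listed under IV. The selection uses the result itself, so that these 11 are described and not tested again as a group. None belonged to complex V.

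In complex I, Ndufa7, an accessory subunit (mm9 chr17:33961536-33975261, plus strand), had 316, 293 and 314 normalized counts in PyMT and 677, 455 and 389 in FVB at week 6, and 352, 338 and 278 against 746, 451 and 483 at week 8. At week 10 it had 367, 159 and 286 against 461, 492 and 756, and at week 12 it had 367, 232 and 378 against 677, 466 and 583. Every PyMT sample lay below every FVB sample, which Ndufa7 alone of the 78 members showed and which 7.22% of all tested genes showed. Its log2 fold change was -0.84 (SE 0.14, adjusted p = 2.63e-05) over 24 libraries and -0.58 (SE 0.15, adjusted p = 0.00314) over 18.

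Ndufb10, an accessory subunit of the membrane arm, ran from 192 to 382 (median 290) in the 12 PyMT samples and from 316 to 1019 (median 480) in the 12 FVB samples. Its log2 fold change was -1.003 (SE 0.20) over 24 and -0.50 (SE 0.15) over 18 libraries. Ndufv3, a small subunit of the NADH-oxidizing module, ran from 222 to 627 (median 340) against 403 to 931 (median 620), with -0.84 (SE 0.18) and -0.54 (SE 0.18). Ndufa1, an X-linked accessory subunit, ran from 68.1 to 195 (median 108) against 114 to 728 (median 224), with -1.24 (SE 0.26) and -0.77 (SE 0.24). The ranges of these 3 genes overlapped between the genotypes and each passed the test with and without the 6 libraries. Ndufa4, counted here under complex I, had the highest FVB mean per kilobase of exon in its group at 2075 normalized counts per kb, and 1398 in PyMT. Its difference was -0.56 (SE 0.23, adjusted p = 0.0429) over 24 libraries and 0.11 (SE 0.14, adjusted p = 0.549) over 18, so the call was lost with the 6 libraries.

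Ndufa4l2, a paralog of Ndufa4 that hypoxia is known to induce, was near the limit of counting. It had 0, 1.04 and 0 normalized counts in PyMT and 52.2, 45.5 and 32.6 in FVB at week 6. At week 8 it had 11.4, 0 and 8.23 against 0, 27.9 and 70.1, at week 10 it had 0.89, 0 and 11.9 against 65.4, 5.01 and 0, and at week 12 it had 1.03, 44.9 and 3.7 against 65.9, 121 and 60.1. PyMT samples lay below all FVB samples at weeks 6 and 12 and overlapped them at weeks 8 and 10. It passed over all weeks (adjusted p = 0.0102) and over 18 libraries (adjusted p = 0.00722), and its fitted fold change depends on the prior count. An exon of a gene on the other strand overlaps its exons.

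Complex II, succinate dehydrogenase, has 4 subunits, all encoded in the nucleus, and it was the complex with the lowest median in both fits. Sdhb, the iron-sulfur subunit (mm9 chr4:140517118-140535108, plus strand), had 933, 1390 and 671 normalized counts in PyMT and 2822, 1490 and 903 in FVB at week 6, and 1036, 615 and 728 against 2796, 859 and 842 at week 8. At week 10 it had 706, 631 and 684 against 1077, 1199 and 3002, and at week 12 it had 698, 538 and 702 against 2760, 1332 and 1079. The genotypes did not overlap at weeks 10 and 12 and overlapped at weeks 6 and 8. Its log2 fold change was -1.12 (SE 0.23, adjusted p = 0.000324) over 24 and -0.49 (SE 0.13, adjusted p = 0.00477) over 18 libraries.

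Sdha, the flavoprotein whose promoter held NRF1 cores at 3 places, ran from 1580 to 3640 (median 1890) in PyMT and from 2032 to 7340 (median 3125) in FVB, with -0.97 (SE 0.21) over 24 and -0.41 (SE 0.10) over 18 libraries. Sdhc, a membrane anchor, ran from 375 to 711 against 557 to 1759, with -0.88 (SE 0.20) and -0.33 (SE 0.13). Sdhd, the other anchor, ran from 412 to 872 against 619 to 1459. It was lower over 24 libraries, at -0.61 (SE 0.16, adjusted p = 0.0032), and did not pass over 18, at -0.20 (SE 0.11, adjusted p = 0.133). The decrease of Sdha, Sdhb and Sdhc thus passed in both fits and was smaller in size in the second. With the brown fat covariate, alone or with the muscle covariate, Sdhb was still called and Sdha and Sdhc were not.

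In complex III, Uqcrq, a small accessory subunit, had 166, 248 and 128 normalized counts in PyMT and 506, 263 and 254 in FVB at week 6, and 269, 42.2 and 201 against 534, 207 and 234 at week 8. At week 10 it had 160, 138 and 162 against 211, 278 and 707, and at week 12 it had 106, 170 and 157 against 736, 318 and 319. The genotypes overlapped at week 8 only. Its log2 fold change was -1.20 (SE 0.27, adjusted p = 0.000635) over 24 and -0.69 (SE 0.25, adjusted p = 0.0262) over 18 libraries. Uqcrc1, a core subunit with 1573 normalized counts per kb of exon in FVB and 855 in PyMT, had -0.89 (SE 0.25, adjusted p = 0.00409) and -0.21 (SE 0.11, adjusted p = 0.128). Uqcr11, a small subunit, had -0.71 (SE 0.18, adjusted p = 0.0023) and -0.21 (SE 0.13, adjusted p = 0.194). Of this complex Uqcrq alone was called in both fits.

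In complex IV, Cox8a, the ubiquitous form of the smallest subunit (mm9 chr19:7289648-7292106, minus strand), had 784, 1139 and 890 normalized counts in PyMT and 1999, 1374 and 1281 in FVB at week 6, and 1258, 1285 and 1046 against 3163, 1468 and 1192 at week 8. At week 10 it had 1038, 948 and 934 against 1989, 1679 and 3047, and at week 12 it had 1106, 996 and 1066 against 2910, 2040 and 2095. The genotypes overlapped at week 8 only, and 10 of 12 FVB samples lay above all PyMT samples. Its log2 fold change was -0.93 (SE 0.14, adjusted p = 6.58e-06) over 24 and -0.63 (SE 0.11, adjusted p = 6.48e-05) over 18 libraries. Cox6a1, the ubiquitous form of subunit VIa, ran from 340 to 770 (median 587) in PyMT and from 666 to 2264 (median 869) in FVB, with -0.93 (SE 0.19) and -0.50 (SE 0.13). Cox6c ran from 314 to 1048 against 491 to 1696, with -0.83 (SE 0.19) and -0.41 (SE 0.11).

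Isoforms of complex IV subunits were read separately. Cox6a2, the heart and muscle form of subunit VIa, was not tested. It had 1151, 86.4 and 0 normalized counts in FVB at week 6, 0, 1.16 and 6.78 at week 8, 0, 0 and 1335 at week 10 and 687, 46.6 and 6.56 at week 12, and at most 72.5 in PyMT. The 4 highest values were those of the 4 muscle-rich libraries. Cox4i1, the general form of subunit IV, had the highest level per kb of the complex (3899 in FVB and 2719 in PyMT) and differed by -0.51 (SE 0.16, adjusted p = 0.00893) over 24 and by -0.09 (SE 0.09, adjusted p = 0.415) over 18 libraries. Cox4i2, the lung and hypoxia form, was at 65.7 or below in every library, and Cox6b2, the testis form, at 42.9 or below. Cox6b1 had -0.66 (SE 0.22, adjusted p = 0.0157) and 0.04 (SE 0.10, adjusted p = 0.777). Cox7a2 (257 to 782 in FVB, 309 to 667 in PyMT) and Cox7a2l (521 to 895 and 569 to 859) passed in neither fit, with -0.16 (SE 0.17) and 0.02 (SE 0.09) over 24 libraries and 0.06 (SE 0.12) and 0.17 (SE 0.09) over 18.

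Complex V had the smallest differences over 24 libraries. Atp5b, the catalytic beta subunit, had 8320, 10569 and 8944 normalized counts in PyMT and 17771, 10356 and 7524 in FVB at week 6, and 9033, 8970 and 7745 against 19820, 6601 and 6498 at week 8. At week 10 it had 7701, 7086 and 6629 against 9521, 8318 and 18424, and at week 12 it had 7967, 6153 and 7046 against 17830, 8597 and 8459. In each week 1 FVB sample lay far above the others, and the other FVB samples ran from 6498 to 10356 beside 6153 to 10569 in PyMT. Within weeks, the genotypes overlapped at weeks 6 and 8, and at weeks 10 and 12 every PyMT sample lay below every FVB sample, also without the high one. Its log2 fold change was -0.54 (SE 0.19, adjusted p = 0.0209) over 24 and 0.01 (SE 0.10, adjusted p = 0.953) over 18 libraries. Atp5d and Atp5e, subunits of the central stalk, had -0.72 (SE 0.19, adjusted p = 0.00265) and -0.59 (SE 0.24, adjusted p = 0.0402) over 24 libraries, and -0.18 (SE 0.13, adjusted p = 0.269) and 0.02 (SE 0.19, adjusted p = 0.947) over 18.

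The c subunit of complex V, which forms its membrane ring, comes from 3 genes that encode the same mature protein. Atp5g2, whose promoter is printed above, had 681, 613 and 667 normalized counts in PyMT and 843, 670 and 524 in FVB at week 6, and 583, 839 and 776 against 488, 597 and 550 at week 8. At week 10 it had 804, 536 and 774 against 540, 602 and 812, and at week 12 it had 790, 750 and 907 against 814, 815 and 618. The genotypes overlapped at every week. The log2 fold change was 0.17 (SE 0.10, adjusted p = 0.19) over 24 libraries and 0.34 (SE 0.10, adjusted p = 0.0115) over 18, where it passed. Atp5g1 ran from 148 to 350 in PyMT and from 68.1 to 426 in FVB, with 0.27 (SE 0.25, adjusted p = 0.375) and 0.62 (SE 0.21, adjusted p = 0.0201). Atp5g3 had -0.05 (SE 0.13, adjusted p = 0.8) and 0.20 (SE 0.10, adjusted p = 0.123). The other members called higher over 18 libraries were the alpha subunit Atp5a1 at 0.29 (SE 0.08), the peripheral stalk subunits Atp5f1 at 0.38 (SE 0.09), Atp5h at 0.36 (SE 0.10) and Atp5o at 0.40 (SE 0.11), Cox7b of complex IV at 0.36 (SE 0.14) and Ndufs4 of complex I at 0.42 (SE 0.16), all of them below 0 over 24 libraries. These 6 were named after their values had been seen.

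**Figure D3:**
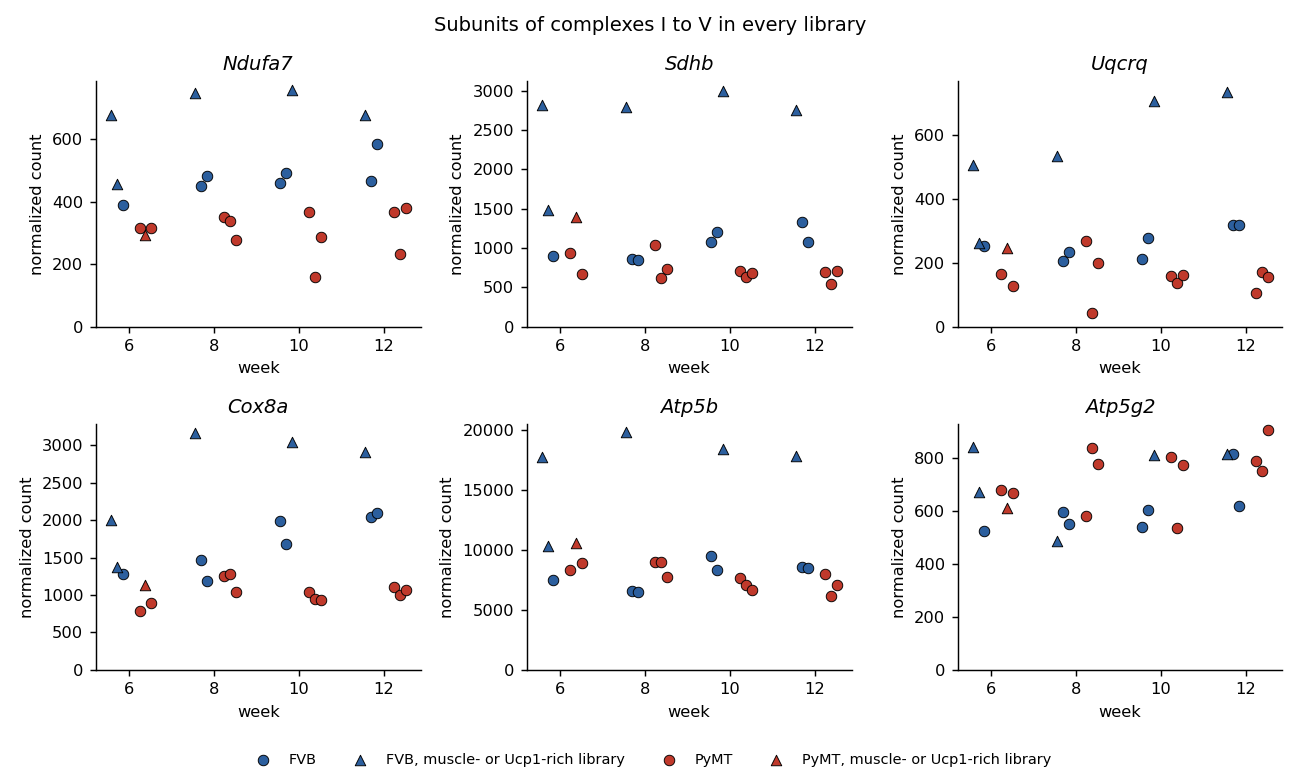
Normalized counts of Ndufa7 (complex I), Sdhb (II), Uqcrq (III), Cox8a (IV) and Atp5b and Atp5g2 (V) in every library by week. Blue is FVB, red is PyMT, each point is 1 mouse and triangles are the 6 muscle- or Ucp1-rich libraries; Ndufa7 is lower in every PyMT sample than in any FVB sample, whereas for Atp5b only the 4 high FVB samples, at 17771 to 19820, lie above all PyMT samples.

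Week by week, with 3 samples against 3, few members passed. At week 6, 1 member was lower, Ndufa4l2, and 0 were higher (7.06% and 4.82% of all genes). That call was lost with the replicate number as a block, and without PyMT replicate 1 or 3 or FVB replicate 1 or 2. At week 8, 0 were lower and 0 higher (6.86% and 4.34%). At an unadjusted p under 0.05 there were 2 lower and 1 higher (2338 and 1830 of all genes). For the same week DESeq2 gave 0 and 1 (12.7% and 8.05% of all genes). At week 10, 8 were lower and 0 higher (9.91% and 6.27%), and at week 12, 12 were lower and 0 higher (15.3% and 12.5%). By edgeR the members' share called lower, 10.3% at week 10 and 15.4% at week 12, was near that of all genes. By DESeq2 it was 21 of 78 (26.9%) at week 10 and 24 of 78 (30.8%) at week 12, above the 14.4% and 18.8% of all genes, so that how the share stands to the background depends on the tool. Unadjusted, 0 members were higher at weeks 6 and 10 and 1 at week 12, and DESeq2 gave 0 at these 3 weeks.

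The 8 members of week 10 were Ndufa1 at -1.58 (SE 0.37), Ndufv3 at -1.29 (SE 0.22), Ndufb10 at -1.31 (SE 0.34), Ndufv1 at -1.16 (SE 0.30), Sdha at -1.13 (SE 0.28), Cox6c at -1.25 (SE 0.35), Cox8a at -1.15 (SE 0.24) and Cox6a1 at -0.97 (SE 0.27). The 12 members of week 12 were Ndufb3 at -1.10 (SE 0.26), Ndufb10 at -1.15 (SE 0.34), Ndufa10 at -1.21 (SE 0.31), Ndufa12 at -0.81 (SE 0.25), Ndufa7 at -0.77 (SE 0.24), Sdhb at -1.37 (SE 0.34), Sdhc at -1.14 (SE 0.29), Uqcrq at -1.61 (SE 0.38), Uqcr11 at -0.92 (SE 0.25), Cox8a at -1.11 (SE 0.19), Cox6a1 at -1.05 (SE 0.32) and Atp5e at -1.12 (SE 0.31). Cox8a, Cox6a1 and Ndufb10 were called at both weeks. Every PyMT sample lay below every FVB sample for 8 members in week 6, for 6 in week 8, for 31 in week 10 and for 27 in week 12, and for 20.4%, 21.7%, 21.6% and 25.2% of all tested genes.

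Across the members the median log2 fold change came to -0.49 for week 6, to -0.47 for week 8, to -0.65 for week 10 and to -0.49 for week 12. Without the 1 FVB library of each week with the highest member level, it was 0.03, 0.19, -0.18 and -0.15. Members called lower were then 0 at weeks 6 and 8, 11 (14.1%) at week 10 and 6 (7.69%) at week 12. Of all genes 5.09%, 6.44%, 11% and 12.1% were then lower at weeks 6, 8, 10 and 12. That library was chosen by the members' own level and only in FVB, so leaving it out raises the median by construction. No conclusion is drawn from the rise. Without that library the median was above 0 at weeks 6 and 8. At weeks 10 and 12 it stayed below 0 and was smaller in size.

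The course from hyperplasia to late carcinoma was examined with 1 model that held the 8 groups. Between weeks 12 and 6, 0 members were called within PyMT, 0 within FVB and 0 for how far the genotypes' difference had shifted, as were 0% of all genes in each of the 3 tests. At an unadjusted p under 0.05 there were 1, 0 and 1 members, and DESeq2 and voom with quality weights called 0 members in each. Of all genes, DESeq2 called 114, 21 and 11 in these tests. The members' median was -0.26 within PyMT and -0.07 within FVB. The smallest p within PyMT was that of Ndufa4l2 (edgeR adjusted p = 0.607), that within FVB was Cox8a's (0.57, SE 0.29, adjusted p near 1), and that of the difference was Atp5g3's (-0.74, SE 0.34, adjusted p near 1). A p that misses the threshold does not show that levels were the same.

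Of the 13 subunits encoded by mitochondrial DNA, 9 were tested, and 7 were lower in PyMT over 24 libraries (median -1.77) and 7 over 18 (median -1.21). Of all tested genes 27.5% and 24.2% were lower in these 2 fits. mt-Nd4 had -2.03 (SE 0.26) and -1.50 (SE 0.13), and mt-Nd5 had -1.93 (SE 0.24) and -1.49 (SE 0.14). The median level of the 9 was 10.5 to 12.2 in PyMT and 12.2 to 14.6 in FVB on the log2(normalized count + 1) scale, and the highest PyMT sample (12.15) was just below the lowest FVB sample (12.17). Among the 18 libraries it was 10.5 to 11.8 in PyMT and 12.2 to 12.9 in FVB, while the median of the nuclear members was 8.52 to 8.96 and 8.64 to 9.09. So the median of the 9 mitochondrial genes was separate between genotypes in the same libraries in which the median of the nuclear subunits overlapped. This did not hold for each gene. Over the 18 libraries mt-Nd4 was separate (up to 3027 normalized counts in PyMT, from 4389 in FVB). Both mt-Nd2 (up to 3543, from 3478) and mt-Nd6 (up to 198, from 155) overlapped. The difference between the nuclear and the mitochondrial set was not tested. mt-Co1 alone had 33189 to 85524 normalized counts in PyMT and 60570 to 353030 in FVB, while mt-Co2, mt-Co3, mt-Atp6, mt-Atp8, mt-Nd3 and mt-Nd4l had at most 97.1 in any library, so these genes are represented unevenly and reads they may share with nuclear copies were not examined.

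**Figure D4:**
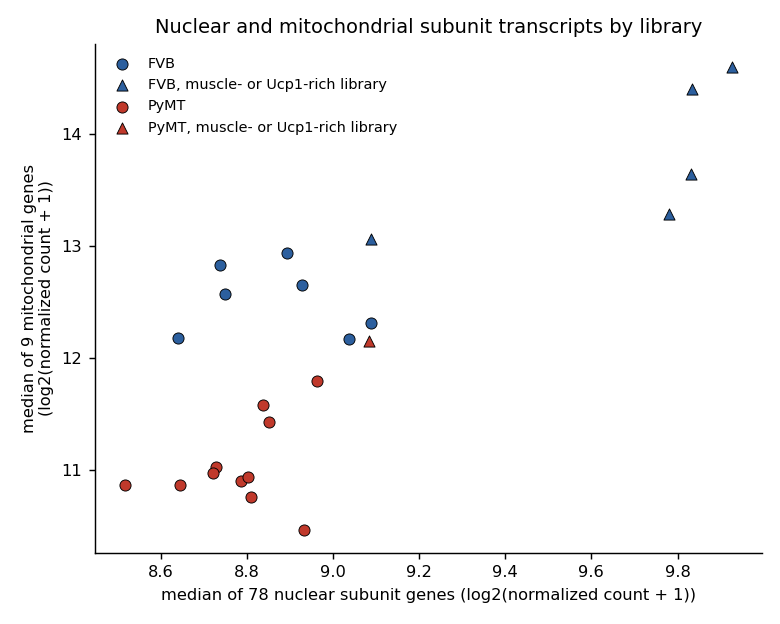
Median level of 9 mitochondrially encoded genes (vertical) against that of the 78 nuclear subunit genes (horizontal), both as log2(normalized count + 1), in each of the 24 libraries. Blue is FVB, red is PyMT and triangles are the 6 muscle- or Ucp1-rich libraries; all FVB libraries lie at 12.17 or above and all PyMT libraries at 12.15 or below on the vertical axis, whereas on the horizontal axis 8 FVB libraries, at 8.64 to 9.09, overlap the PyMT range of 8.52 to 9.08.

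Other genes of the system were read from lists. Of all tested genes 27.5% were lower and 23.6% higher over 24 libraries, and 24.2% and 24% over 18. These shares stand beside the counts of each list here and in the next paragraph, and no list was tested as a set. Of 30 assembly factors 9 were lower and 1 higher over 24 libraries (median -0.29), and 4 and 3 over 18 (median -0.04). Cox19 (-0.78, SE 0.15) and Cox17 (-0.68, SE 0.15), which serve copper delivery to complex IV, were lower in both fits, Acad9, a complex I assembly factor, was higher in both (0.70, SE 0.11 and 0.61, SE 0.12), and Sco1 did not pass (0.23, SE 0.18). Of 13 electron carriers and exchangers 6 were lower and 1 higher (median -0.60), and 4 and 5 over 18 libraries (median 0.04). Etfa (-0.99, SE 0.18) and Etfb (-1.35, SE 0.25), which carry electrons from fatty acid oxidation to ubiquinone, were lower in both fits, as Slc25a5, an ADP/ATP carrier, was higher in both (0.33, SE 0.10 and 0.43, SE 0.11). Atpif1, the inhibitor of complex V, had 0.50 (SE 0.25) and passed over 18 libraries (0.53, SE 0.15).

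Of 17 regulators of mitochondrial biogenesis 3 were lower and 3 higher (median 0.07), and 1 and 4 over 18 libraries (median 0.12). Ppargc1b, a coactivator of oxidative metabolism, was lower in both fits (-1.71, SE 0.34 and -1.13, SE 0.27), and its paralog Ppargc1a was lower over 24 libraries (-1.91, SE 0.52) and not over 18 (-0.79, SE 0.51). The nuclear receptor Esrrg (1.78, SE 0.25 and 2.32, SE 0.25) and Gabpb2, a subunit of the GABP factor (0.32, SE 0.07 and 0.27, SE 0.07), were higher in both. Of 21 tested genes of protein import 0 were lower and 6 higher (median 0.10), and 0 and 9 over 18 libraries (median 0.38). Tomm5 (0.57, SE 0.17) and Tomm20 (0.33, SE 0.10) were higher, and Timm44 (-0.23, SE 0.11) and Timm23 (-0.34, SE 0.18) did not pass. Of 75 mitochondrial ribosomal proteins 2 were lower and 11 higher (median 0.11), and 0 and 23 over 18 libraries (median 0.29), with Mrps12 (0.94, SE 0.25) and Mrpl32 (0.53, SE 0.14) higher and Mrpl30 (-0.58, SE 0.16) and Mrpl4 (-0.44, SE 0.18) lower over 24 libraries. Of 88 genes with names of cytosolic ribosomal proteins, which include the Rps6k kinases, 4 were lower and 67 higher (median 0.64), and 3 and 65 over 18 libraries (median 0.63), with Rpl7a at 1.13 (SE 0.08) and Rps6ka1 at 1.99 (SE 0.18), and Rps4y2 at -3.36 (SE 0.80) and Rps6ka4 at -0.64 (SE 0.16). With library size only, assembly factors had 4 lower and 7 higher (median 0.03), carriers and exchangers 4 and 3 (median -0.28), biogenesis regulators 2 and 9 (median 0.35), import genes 0 and 13 (median 0.43), mitochondrial ribosomal proteins 0 and 34 (median 0.42), cytosolic ones 1 and 73 (median 0.92) and mitochondrially encoded subunits 7 and 0 (median -1.40). Of all genes 19.2% were lower and 36.4% higher with this scaling, and their median rose from -0.03 to 0.26. The median of assembly factors rose from -0.29 to 0.03, so its change of sign came with a rise over all genes.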

How the data were processed

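RNA-seq was done on 24 samples of mammary tissue. Directional libraries were made by the authors from total RNA depleted of ribosomal RNA. GSNAP placed the reads on mm9 and HTSeq counted them by gene, and the deposited values are these raw counts, with no normalization. The strand and overlap settings of the counting are not given in the sources used here. Every column belonged to 1 sample. Symbols and mm9 coordinates came from GENCODE M1. The members and gene lists were chosen with earlier results of these data known.

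Counts were tested in R 4.3.3 with edgeR 4.0.16 (glmQLFit and glmQLFTest, TMM scaling) after a filter of CPM of at least 1 in at least 12 samples, with Benjamini-Hochberg adjustment over the 14918 genes. PyMT was compared with FVB at each week and over all weeks with week as a factor, and weeks 12 and 6 in a fit of 8 groups. The standard error is the log2 fold change over the square root of F. DESeq2 1.42.0 gave size factors and an alternative test, and limma 3.58.1 another. Tables and figures were made in Python 3.11.15 with pandas 2.3.3, NumPy 2.4.6, SciPy 1.17.1 and matplotlib 3.10.9.

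On simulated counts with 200 changed genes the week 12 fit recovered 1% of 100 genes changed 2-fold and 30% of 100 changed 4-fold, with 5 false calls, and the fit of all weeks recovered 61% and 80%, with 2 false calls, over 14918 genes. Far fewer genes changed there than were called in the real fits, which makes the adjusted p stricter. These shares therefore do not measure what the real fits recover.

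Named members were the 3 of each complex with the smallest p over all weeks, all Sdh genes, a set of isoforms, and up to 6 members per direction with a change over 2-fold at any week, by size. Of each list the 2 genes per direction with the smallest p were named, and cell type markers are given by counts. Alternatives were DESeq2, RLE factors, library size only, no filter, voom with sample quality weights, a replicate block, a fit of all 24 samples, each sample left out, the 13 libraries with packets left out (those whose number of genes by count peaks at 8 to 25 counts) and a skeletal muscle covariate. Leaving out muscle-rich and Ucp1-rich libraries and covariates for brown fat were added after seeing the data. Replicates are separate mice, and no pair of replicates agreed within sampling noise (chi-square per degree of freedom 19.3 to 244).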

Additional observations from a re-analysis of the deposited data

How the results depend on the processing

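Over all weeks, leaving out each sample gave 31 to 44 lower and 0 to 1 higher members (1 without FVB week 8 replicate 1). Of all genes 25.8% to 27.3% were then lower and 22.3% to 24.5% higher. With library size only 24 were lower and 7 higher (19.2% and 36.4% of all genes). Voom with quality weights gave 23 and 3 (29.1% and 28% of all genes). A muscle covariate gave 26 and 2 (25.3% and 22.5% of all genes). Without muscle-rich libraries there were 19 and 2 (23.3% and 23.1%). Without muscle- or Ucp1-rich libraries there were 19 and 8 (24.2% and 24%, median 0.0134). The brown fat covariate gave 11 lower (14.1% of members, 22.6% of all genes), and both covariates 11 lower and 1 higher (14.1% lower, 22.6% of all genes, median -0.0842). Leaving out the 13 libraries with packets gave 2 lower (2.56%, 19.1% of all genes). No PyMT library of week 6 and no FVB library of week 10 then remains, so this fit compares genotypes only at week 8 (2 PyMT, 1 FVB) and week 12 (2 and 2). The cause was not tested, except that these last alternatives use fewer samples or more terms.

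At week 6, DESeq2 called 2 members lower (11.3% of all genes). Leaving out 1 sample left 0 to 1, against 3.6% to 7.23% of all genes. It left 0 without PyMT replicate 1 or 3 or FVB replicate 1 or 2. At week 8, DESeq2 called 1 higher and voom 2 (8.05% and 9.65% of all genes). At week 10, 21 were lower by DESeq2 (14.4% of all genes), 14 by voom (14.4%) and 2 with library size only (6.66%, median -0.27). With 1 sample left out, 1 to 11 were lower, against 5.99% to 11% of all genes. There were 1, 1 and 2 without PyMT replicates 1, 2 and 3 (5.99%, 7.16% and 6.56% of all genes). At week 12, 24 were lower by DESeq2 (18.8% of all genes) and 20 with no filter (10.8% of 23247 genes). The fit of 8 groups gave 5 lower (11.8%). Library size only gave 5 lower and 1 higher (11.5% and 20%, median -0.13). With 1 sample left out, 2 to 25 were lower. There were 2, 3 and 5 without PyMT replicates 1, 2 and 3 (13%, 10.6% and 10.2% of all genes). There were 6 without FVB replicate 1 (12.1%) and 25 without FVB replicate 2 (16.4%).

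Deviations of same-numbered PyMT and FVB samples of a week correlated at -0.08 to 0.29, over 0.1 in 6 of 12 pairs, and those of differently numbered samples at -0.21 to 0.09, over 0.1 in 0 of 24. At week 10 all 3 same-numbered pairs were over 0.1 (0.136, 0.108 and 0.293), and at the other weeks not all were. Of the PyMT samples 8 of 12 correlated best with their own number, a hint from the data and not from the design. With the replicate number as a block, 38 members were lower over all weeks (27.1% of all genes). The weekly fits gave 0 (week 6), 0 (week 8), 6 (week 10) and 11 (week 12). Of all genes 5.28%, 6.19%, 9.18% and 13% were lower in these weekly fits.

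Leaving out the muscle- or Ucp1-rich libraries takes out the 4 FVB libraries with the highest member levels, which tends to raise the members' values. Without muscle- or Ucp1-rich libraries 36 of 78 members went from below 0 to above 0 over all weeks. Among them were Atp5a1, Atp5f1, Atp5h, Atp5o, Cox7b and Ndufs4, which were then called higher, and, of the members named by rule, Atp5b (0.0088), Atp5e (0.018), Cox6b1 (0.037), Cox7a2 (0.059), Ndufa4 (0.11) and Atp5g3 (0.20). Cox7a2 was 0.17 with library size only, 0.11 with the brown fat covariate and 0.12 with both. The value of Cox7a2l, all weeks, was -0.0558 without libraries with packets and -0.0127 without FVB week 8 replicate 2, the low end of a range that reached 0.0742 with 1 sample left out. The value of Atp5g3, all weeks, was 0.29 with library size only, 0.089 with voom, 0.11 with the muscle covariate, 0.17 without muscle-rich libraries, 0.097 with the brown fat covariate, 0.15 with both, 0.0593 without FVB week 10 replicate 3 and 0.021 without FVB week 12 replicate 1, in a range from -0.0897 to 0.0593 with 1 sample left out. With 3 samples a group the simulated week 12 fit recovered few 2-fold changes. Far fewer genes changed there than were called in the real fits, so that share does not measure what the weekly fits recover. A missing call at 1 week does not show that levels were the same.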

Other observations

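Markers of other cell types were also compared over all weeks. The lipid droplet genes Cidec and Plin1 had log2 fold changes (PyMT over FVB) of -3.88 (SE 0.33) and -4.01 (SE 0.34), the endothelial receptors Kdr and Pecam1 -2.52 (SE 0.19) and -2.08 (SE 0.16), and the fibroblast genes Pdgfra and Lum -2.19 (SE 0.13) and -2.29 (SE 0.15). The smooth muscle myosin Myh11 and the oxytocin receptor Oxtr, of the basal list, had -3.10 (SE 0.23) and -3.13 (SE 0.25), while the basal keratin Krt14 did not pass (0.22, SE 0.36). The luminal genes Elf5 (2.29, SE 0.17) and Epcam (2.04, SE 0.17) were higher, and Krt19 was lower (-0.59, SE 0.23). In the macrophage list Csf1r was lower (-0.67, SE 0.17), and C1qa (-0.13, SE 0.15), Lyz2 (0.17, SE 0.19) and Emr1 (0.14, SE 0.19) did not pass. Muscle's Acta1 and Ckm had -4.85 (SE 1.29) and -5.01 (SE 1.46) over 24 libraries and -1.53 (SE 1.74) and -0.97 (SE 1.96) over 18, and brown fat's Cidea and Otop1 had -2.68 (SE 0.85) and -1.59 (SE 0.61), then -1.54 (SE 0.84) and -1.001 (SE 0.64).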
